A study of Mus musculus with 6 samples.

Results

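The genes described here make, take up, move and export cholesterol, 31 of the 25124 gene models in a count table from mouse retina. They were found by symbol, all 31 were in the table, and all 31 passed the filter on low counts that left 14685 genes for testing. Polyadenylated RNA was read from retinas of C57BL/6J mice aged 4 months, in 6 libraries. Of these, 3 came from wild-type animals (WT1A, WT2A and WT2B) and 3 from animals carrying Elovl2(C234W), a substitution in an enzyme that extends very long polyunsaturated fatty acids (FS3A, FS3B and FS5A). The labels give neither sex nor zygosity and do not say whether each library is a separate animal, so a p-value reflects the spread among these samples, which may be technical. The prefix FS is not explained and was taken as C234W by elimination, so the direction of every difference rests on that reading. Whole retina mixes many cell types, and fewer cells of a type cannot be told apart from less RNA per cell.

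Cholesterol is built from acetyl-CoA through mevalonate and isoprenoids to squalene, which is closed into lanosterol and trimmed to cholesterol. When sterol is scarce in the endoplasmic reticulum, SCAP escorts the transcription factor SREBP2 (Srebf2) to the Golgi, where it is cut and released to switch on the synthesis enzymes, and INSIG proteins hold SCAP back when sterol is plentiful. Surplus sterol is esterified, exported through ABC transporters under the oxysterol-sensing LXR receptors, or, in neurons, hydroxylated and released. In the retina, Müller glia and the pigment epithelium are known sites of synthesis and uptake.

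SREBP2 binds a short promoter element together with the factors NF-Y and Sp1. The promoter is therefore shown here for the gene with an exact match to a form of that element. Promoters are also shown for the 3 enzyme genes with a listed promoter whose genotypes did not overlap. RefSeq promoters (GRCm38.p6, the assembly called mm10) were matched for 25 of the 31 genes, and the 250 bases before each start were searched on both strands. In the sequences, written 5′ to 3′ on the gene's strand, capitals mark TCACNCCAC (a form of the sterol regulatory element) and CCAAT (the NF-Y box), each in either orientation, so the box may read ATTGG. The windows are chr13:119690101-119690350, plus strand, for Hmgcs1; chr5:114444019-114444268, plus strand, for Mvk; chr1:169969206-169969455, minus strand, for Hsd17b7; and chr13:8885356-8885605, plus strand, for Idi1. The last base of each window adjoins the start of the deposited gene model.
Hmgcs1: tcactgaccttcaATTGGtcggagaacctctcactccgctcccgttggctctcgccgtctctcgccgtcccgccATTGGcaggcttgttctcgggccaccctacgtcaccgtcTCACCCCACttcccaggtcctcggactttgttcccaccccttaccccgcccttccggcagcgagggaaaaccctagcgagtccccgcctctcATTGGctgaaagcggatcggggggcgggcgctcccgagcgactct
Mvk: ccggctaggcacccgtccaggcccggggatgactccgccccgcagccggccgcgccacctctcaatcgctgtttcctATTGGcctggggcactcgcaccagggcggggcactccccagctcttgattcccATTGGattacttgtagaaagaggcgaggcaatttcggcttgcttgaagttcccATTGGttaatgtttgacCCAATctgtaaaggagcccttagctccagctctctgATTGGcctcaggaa
Hsd17b7: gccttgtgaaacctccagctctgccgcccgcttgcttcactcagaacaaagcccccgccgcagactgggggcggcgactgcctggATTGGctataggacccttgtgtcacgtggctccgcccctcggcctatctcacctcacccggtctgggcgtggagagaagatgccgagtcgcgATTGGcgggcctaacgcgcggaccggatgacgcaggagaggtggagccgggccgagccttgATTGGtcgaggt
Idi1: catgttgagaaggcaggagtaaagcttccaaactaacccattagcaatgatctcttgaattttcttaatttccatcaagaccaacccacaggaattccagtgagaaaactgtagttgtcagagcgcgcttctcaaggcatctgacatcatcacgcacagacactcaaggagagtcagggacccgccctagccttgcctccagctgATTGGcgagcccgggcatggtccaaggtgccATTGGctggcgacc

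The string TCACNCCAC was found in 1 of the 25 genes, Hmgcs1, from 137 to 129 bases before the start, and in 1.23% of the 27025 genes with a listed promoter. No mismatch was allowed, so other forms of the element were not searched for. CCAAT was commoner: 20 of the 25 genes held it, and 14 of the 15 searched enzyme genes, against 37.5% of all genes. A gene with more than 1 listed promoter was counted if any of them held the motif. Dhcr7, Insig2 and Pmvk held CCAAT only in a promoter 7046, 4566 and 4578 bases from the start of the deposited model, and not in their nearer ones. Mvk held 5 copies, Hmgcs1 and Hsd17b7 3 each, and Idi1 2. The Sp1 box GGGCGG was found in 21 of the 25, against 35.4% of all genes. No match overlapped one of another motif in these 25 genes. The genes without CCAAT in the window were Abca1, Acat2, Nr1h2, Nr1h3 and Scap. A match is a run of letters, not a measured binding site.

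In C234W retinas no cholesterol gene passed the test with all libraries. None of the 31 passed at an adjusted p under 0.05 (edgeR quasi-likelihood test, Benjamini-Hochberg adjustment over all genes), where 1.46% of all genes tested passed (0.184% higher and 1.28% lower). That is 215 genes, and under RLE, upper-quartile or total-count scaling 0 of all genes passed. At an unadjusted p under 0.05 there were 4, all with negative log2 fold changes (Abcg1, Mvk, Hsd17b7 and Fdps), or 12.9% of the 31 against 25.4% of all genes (11.9% higher, 13.5% lower). DESeq2 called 1, Fdps, against 11.9% of all genes, and limma-voom called 0, against 1.63%. The fitted change was positive for 16 genes and negative for 15 (52% and 48% of all genes), with a median log2 fold change of 0.020, beside 0.023 over all genes. Groups did not overlap for 6 genes (19.4% of the 31), against 29.1% of all genes: Idi1 was higher in C234W (12.6% of all genes) and Nr1h3, Npc2, Mvk, Hsd17b7 and Fdps were lower (16.4%). Scaled to total counts alone, groups did not overlap for 9 genes, against 33.3% of all genes. All 9 were higher in C234W, Idi1 was the 1 gene shared with the 6, and the 5 lower genes overlapped. That scaling raised the whole table, with a median log2 fold change of 0.20 over all genes and 0.19 over the 31. The share of all genes by direction was not counted there. Without WT1A groups did not overlap for 17 genes, against 53% of all genes, and without FS5A for 12, against 40.1%. The range ran from -0.70 for Fdps to 0.58 for Acat2 on the log2 scale. With WT1A left out, 5 passed, and 18.5% of all genes did: Fdps fell (9.39% of all genes), and Lss, Npc1, Soat1 and Nr1h2 rose (9.13%). The wild-type libraries left in that fit, WT2A and WT2B, share a number in their names, and whether they are separate animals is not stated. They were also the most alike pair of libraries, so the wild-type spread in that fit comes from that pair alone. Without FS5A 0 of the 31 and 0.0267% of all genes passed, and without any other library none of the tested genes did. With the trend of expression on transcript length removed from each library, no gene passed, and 4 of the 31 were at an unadjusted p under 0.05, against 19.3% of all genes: Abcg1, Npc2 and Hsd17b7 with negative signs (11% of all genes) and Nr1h2 with a positive sign (8.32%). It left 16 genes positive and 15 negative, and turned the sign of Pmvk, Mvd, Cyp51 and Abca1.

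**Figure D1:**
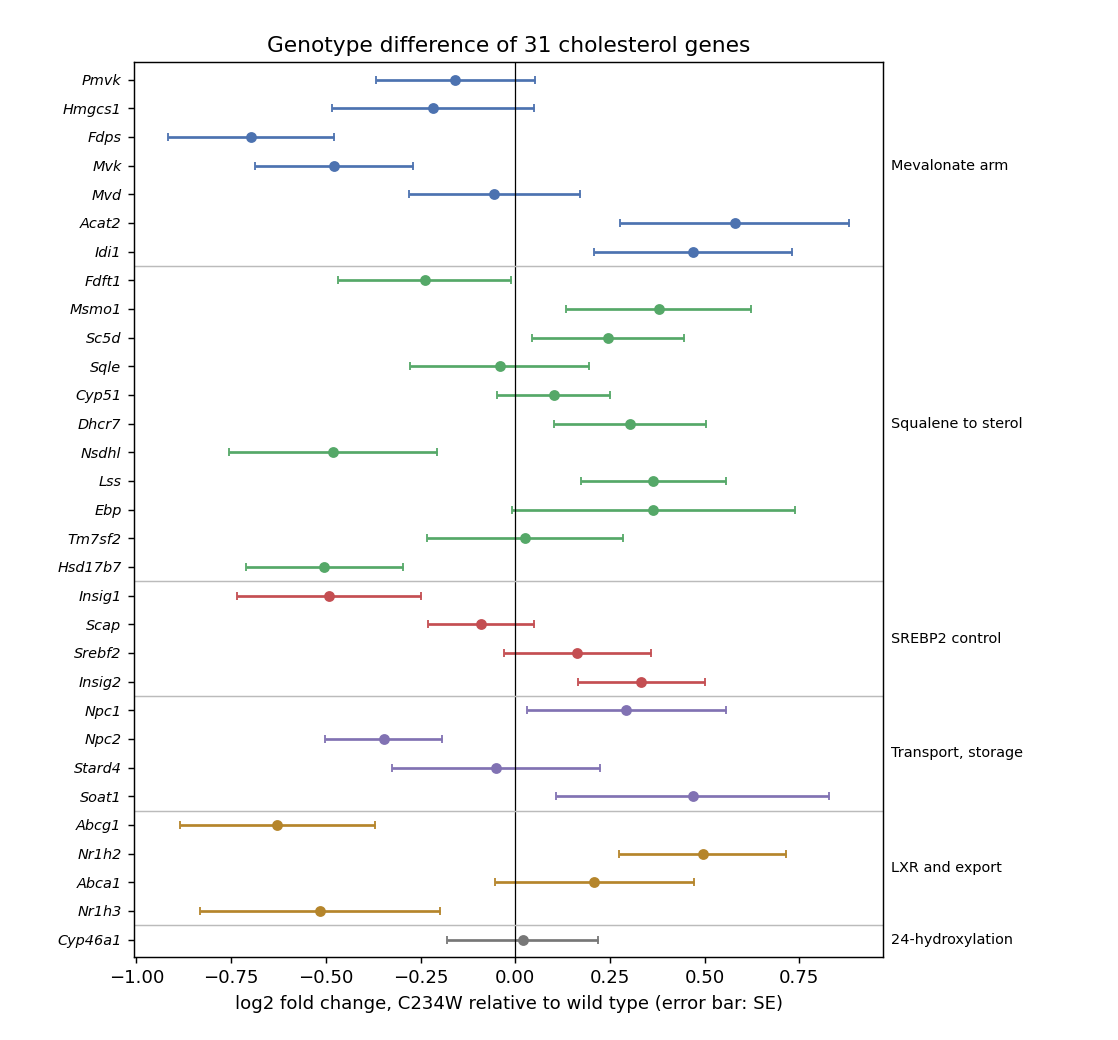
Log2 fold change of each of the 31 genes, C234W relative to wild type, with its SE, in role groups separated by lines. Points lie on both sides of 0 in every group of more than 1 gene, from -0.70 for Fdps to 0.58 for Acat2, and none passed the test.

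Some facts of the whole series bear on these values. Libraries held 14184093 to 19298613 counts in genes. Elovl2 itself was measured at 142, 138 and 136 CPM in WT1A, WT2A and WT2B and 81.95, 90.1 and 116 CPM in FS3A, FS3B and FS5A, a log2 fold change of -0.53 (adjusted p = 0.101, SE 0.165), and a substitution need not alter its transcript. Rod markers identified the tissue, with a summed level of 102253 and 108386 CPM over 12 genes in WT2A and WT2B, 160484 CPM in WT1A and 68330 to 90748 CPM in C234W. WT1A stood apart in its rod and pigment epithelium markers. Of the 31 genes it was the highest wild-type library for 16 (51.6%, against 41.8% of all genes) and the lowest for 13 (41.9%, against 40.9%). Of the 12 rod markers, 11 were highest there among the 6 libraries. The 14 pigment epithelium markers summed to 1059 CPM there and to between 287 and 422 CPM in the other libraries, and 8 of the 14 were highest there. The amacrine markers (963 CPM) and endothelium markers (208 CPM) of WT1A had the lowest sums of the 6 libraries. The 10 gliosis markers summed to 1597 and 1084 CPM in FS3A and FS3B, 388 CPM in FS5A, and 335 to 621 CPM in wild type. The part of these cell types in the results was not tested.

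The mevalonate arm, from acetyl-CoA to the isoprenoid farnesyl diphosphate, held the member with the smallest p. Of its 7 enzymes none passed, 2 had positive and 5 negative log2 fold changes, and the median was -0.16. With the length trend removed 4 were positive and 3 negative, with a median of 0.078. Fdps, farnesyl diphosphate synthase (chromosome 3, 89093588 to 89101967, minus strand), was measured at 30.4, 36.6 and 45.3 CPM in WT1A, WT2A and WT2B and 17.7, 26.2 and 25.4 CPM in FS3A, FS3B and FS5A. Every C234W value was below every wild-type value, and FS3A was the lowest. Means were 37.4 ± 7.49 CPM in wild type and 23.1 ± 4.69 CPM in C234W (SD, n = 3 each), a log2 fold change of -0.70 (adjusted p = 0.103, SE 0.219) and a ratio of 0.617. DESeq2 gave an adjusted p of 0.0472, edgeR without WT1A gave 0.0362 with a log2 fold change of -0.82, and over 16 alternatives the adjusted p ran from 0.0362 to 0.422. Removal of the length trend gave a log2 fold change of -0.46.

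Mvk, mevalonate kinase, was measured at 18.1, 19.8 and 25.7 CPM in WT1A, WT2A and WT2B and 13.8, 17.6 and 14.1 CPM in FS3A, FS3B and FS5A. Its groups came close without overlap, with FS3B just below WT1A, and WT2B stood above the others (log2 fold change -0.48, adjusted p = 0.193, SE 0.209, and -0.31 with the length trend removed). Idi1, the isomerase that balances the isoprenoid building blocks, had the opposite sign, with 3.98, 4.198 and 4.27 CPM in the wild-type libraries and 6.57, 6.02 and 4.63 CPM in the C234W libraries. It was the 1 member whose C234W values all lay above wild type, by a narrow gap between FS5A and WT2B, with a log2 fold change of 0.47 (adjusted p = 0.289, SE 0.262).

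Hmgcs1, the synthase that makes HMG-CoA, was the gene with the exact match to a sterol element form shown above. Its levels were 75.3, 103 and 125 CPM in WT1A, WT2A and WT2B and 74.5, 122 and 65.4 CPM in FS3A, FS3B and FS5A. WT2B and FS3B were alike and high, and the other 4 libraries were lower, so the genotypes overlapped over nearly their whole range (log2 fold change -0.22, adjusted p = 0.640, SE 0.267). Acat2, the acetyl-CoA acetyltransferase at the entry to the pathway, had 10.5, 6.35 and 8.83 CPM in the wild-type libraries and 11.7, 17.5 and 9.02 CPM in the C234W libraries. FS3B was the highest of the 6 and WT2A the lowest, and the other 4 lay between 8.83 and 11.7 CPM. Its log2 fold change was 0.58 (adjusted p = 0.260, SE 0.303). The decarboxylase Mvd had a log2 fold change of -0.06, and 0.08 with the length trend removed. Its deposited model is a non-coding RefSeq transcript, so its level depends on that choice. Pmvk, phosphomevalonate kinase and the most abundant enzyme per kilobase, had 36.1, 40.6 and 40.6 CPM in the wild-type libraries and 45.7, 32.5 and 26.9 CPM in the C234W libraries. FS3A was the highest and FS5A the lowest of the 6, so the C234W values enclosed those of wild type (log2 fold change -0.16, adjusted p = 0.667, SE 0.209, and 0.15 with the length trend removed).

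From squalene to cholesterol, 7 enzymes had positive and 4 negative log2 fold changes, none passed, and the median was 0.10. Hsd17b7, which reduces the 3-keto group left after demethylation, was measured at 18.2, 13.8 and 19.9 CPM in WT1A, WT2A and WT2B and 11.6, 12.995 and 11.9 CPM in FS3A, FS3B and FS5A. The C234W values were tightly grouped and all lay below wild type, with a log2 fold change of -0.50 (adjusted p = 0.175, SE 0.207), and -0.66 (adjusted p = 0.161) with the length trend removed. Nsdhl acts in the same demethylation complex and had 16.7, 17.98 and 25.3 CPM in the wild-type libraries and 11.1, 19.7 and 12.1 CPM in the C234W libraries. There FS3B lay among the wild-type values and the groups overlapped (log2 fold change -0.48, adjusted p = 0.299, SE 0.275).

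Msmo1, the sterol C4-methyl oxidase of that complex, was measured at 25.8, 23.7 and 25.7 CPM in WT1A, WT2A and WT2B and 28.1, 45.8 and 23.8 CPM in FS3A, FS3B and FS5A. FS3B stood alone, and the other 5 lay between 23.7 and 28.1 CPM (log2 fold change 0.38, adjusted p = 0.355, SE 0.244). Lss, lanosterol synthase, had 52.3, 38.9 and 34.9 CPM in the wild-type libraries and 47.6, 55.7 and 59.1 CPM in the C234W libraries. WT1A lay within the C234W range and WT2A and WT2B were below all of them, so the log2 fold change was 0.37 (adjusted p = 0.261, SE 0.191) with all libraries and 0.56 (adjusted p = 0.0485) without WT1A. With the length trend removed it was 0.14.

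Ebp, the sterol isomerase, was measured at 17.5, 5.92 and 8.83 CPM in WT1A, WT2A and WT2B and 14.3, 16.03 and 11.1 CPM in FS3A, FS3B and FS5A. WT1A held the highest value of the 6, 2.96 times that of WT2A, and the log2 fold change was 0.36 (adjusted p = 0.566, SE 0.373). The first committed enzymes of the branch, Fdft1 (squalene synthase) and Sqle (squalene epoxidase), had log2 fold changes of -0.24 and -0.04. Fdft1, the most abundant of the branch per kilobase, was measured at 54.99, 73.96 and 84.5 CPM in WT1A, WT2A and WT2B and 51.8, 78.4 and 50.5 CPM in FS3A, FS3B and FS5A, with WT2B and FS3B highest as for Hmgcs1. Cyp51, which removes the methyl group at C14 of lanosterol, was the steadiest enzyme, with 45.2, 44.9 and 44.6 CPM in the wild-type libraries and 42.4, 51.9 and 50.1 CPM in the C234W libraries. Its 3 wild-type values were nearly equal, and the log2 fold change was 0.10 (adjusted p = 0.704, SE 0.150), or -0.04 with the length trend removed. Sc5d and Dhcr7, of the last desaturation and reduction steps, had log2 fold changes of 0.24 and 0.30, and the sterol reductase Tm7sf2, whose model overlaps Vps51 on the same strand by 9 bases, had 0.03, or 0.26 with the length trend removed.

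**Figure D2:**
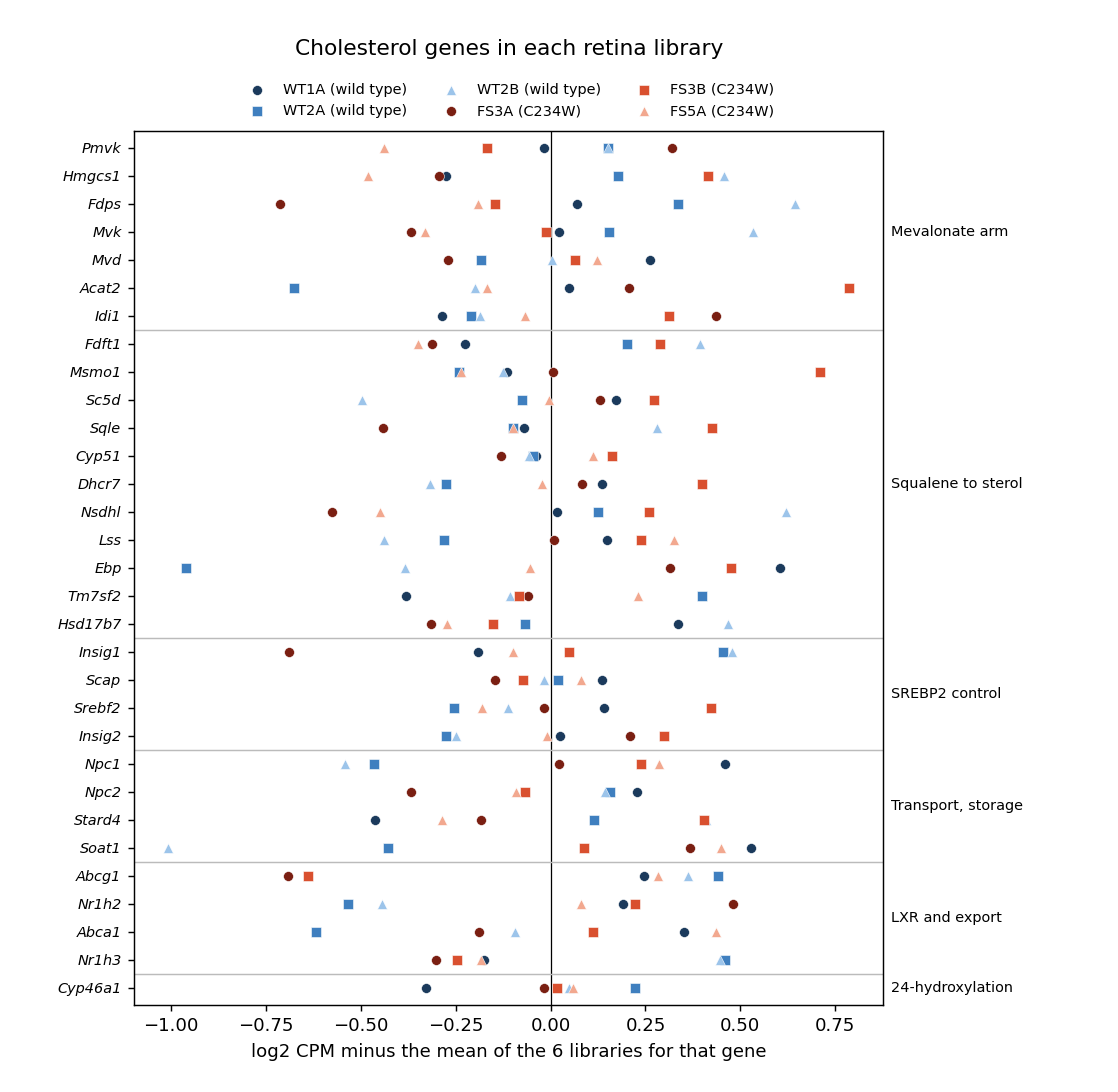
Log2 CPM of each of the 31 genes in each library, minus the mean of the 6 libraries for that gene, with wild type in blue and C234W in red. The square for FS3B lies at the right for many enzymes (13 of 18 were highest of the C234W libraries there), and the dark circle for WT1A lies at the right for Npc1, Soat1 and Ebp.

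The summed level of the enzymes varied within each genotype by more than the genotypes differed. Summed over the 18 enzymes, the level was 517.7, 532.2 and 595.8 CPM in WT1A, WT2A and WT2B and 477.9, 636.2 and 472.2 CPM in FS3A, FS3B and FS5A. The means were 548.6 ± 41.6 CPM in wild type and 528.7 ± 93.1 CPM in C234W (SD, n = 3 each), a gap smaller than the SD of either. Of the 18 enzymes, 13 were highest of the 3 C234W libraries in FS3B, and 34.5% of all genes were. The median ratio of FS3B to FS3A was 1.25 over the enzymes and 0.963 over all genes. This pattern was noticed in the data and is a description.

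The library names end in A or B, letters the labels do not explain. Of the 18 enzymes, 11 were higher in WT2B than in WT2A and in FS3B than in FS3A, or 61.1%, against 27.3% of all genes. Only Tm7sf2 of the 18 was lower in both, or 5.56%, against 32.9% of all genes. Taken singly, 15 of the 18 were higher in FS3B than in FS3A (83.3%, against 44.7% of all genes). In WT2B, 13 were higher than in WT2A (72.2%, against 49.8%). Enzymes that are switched on together are not independent counts, so the joint share is a description and no test of the letter. Outside the enzymes, Insig1, Insig2, Srebf2, Stard4 and Abca1 were higher in both B libraries. Marker sums of cones, Müller glia, bipolar, amacrine and horizontal cells, microglia, endothelium and oligodendrocytes were also higher in both. For Müller glia they were 6664 and 8055 CPM in WT2A and WT2B and 5290 and 6085 CPM in FS3A and FS3B. Sums of rods, ganglion cells, gliosis, astrocytes, pigment epithelium, ciliary body, pericytes, erythrocytes and lens were not. The part of cell types in this order was not tested. The median WT2B to WT2A ratio of the enzymes was 1.14, and 0.999 over all genes. Against WT1A the order of WT2B was less plain: its mean enzyme deviation was 0.069 beside 0.022 in WT1A, and for the 11 enzymes from squalene on it was -0.015 beside 0.052. WT2B was the highest wild-type library for 9 of the 18 enzymes and for 4 of those 11, against 30.9% of all genes. With the letter as a term in edgeR, 0 of the 31 genes passed for genotype and 4.77% of all genes did, and the members' median log2 fold change was 0.020. Within the 4 libraries of letter A it was -0.056, and the B libraries are 1 of each genotype.

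**Figure D3:**
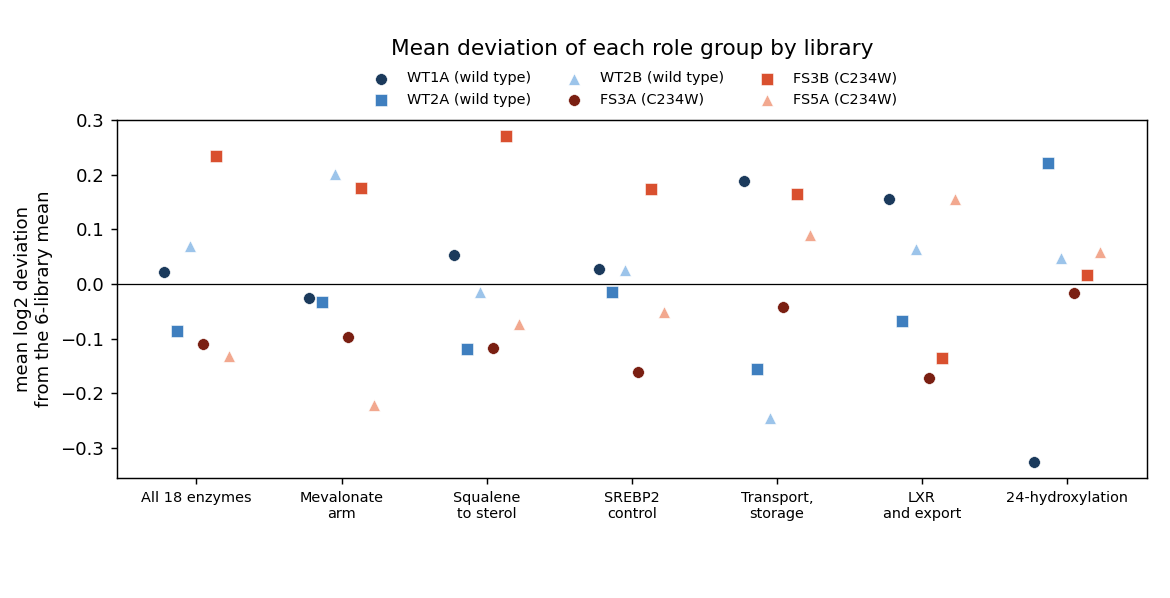
Mean over the genes of each role group of log2 CPM minus each gene's 6-library mean, one point a library. For all 18 enzymes FS3B stands at 0.23 and WT2B at 0.069, and FS3A and FS5A lie at -0.11 and -0.13.

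Of the 4 genes for SREBP2 and its control, none passed. Srebf2 was measured at 132, 100.5 and 111 CPM in WT1A, WT2A and WT2B and 118, 161 and 106 CPM in FS3A, FS3B and FS5A. FS3B was again the highest and the other 5 libraries overlapped (log2 fold change 0.16, adjusted p = 0.625, SE 0.194, and 0.01 with the length trend removed). Scap, its escort, had 144, 132 and 129 CPM in the wild-type libraries and 118, 124 and 138 CPM in the C234W libraries, the narrowest relative spread of this group, and a log2 fold change of -0.09 (adjusted p = 0.715, SE 0.140), or -0.22 with the length trend removed. The 2 Insig genes had opposite signs. Insig1, itself a target of SREBP2, was measured at 70.8, 111 and 113 CPM in WT1A, WT2A and WT2B and 50.1, 83.7 and 75.6 CPM in FS3A, FS3B and FS5A. WT2A and WT2B were above the rest, WT1A lay within the C234W range, and the log2 fold change was -0.49 (adjusted p = 0.238, SE 0.243). Insig2, which is known to be less dependent on SREBP2, had 35.3, 28.6 and 29.1 CPM in the wild-type libraries and 40.1, 42.6 and 34.4 CPM in the C234W libraries. WT1A lay between the C234W values, and WT2A and WT2B were below them, with a log2 fold change of 0.33 (adjusted p = 0.245, SE 0.168).

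Of the 4 transport and storage genes none passed with all libraries. Npc2 is the soluble lysosomal protein that hands cholesterol to the membrane protein NPC1. Npc2 was measured at 46.2, 43.98 and 43.6 CPM in WT1A, WT2A and WT2B and 30.5, 37.6 and 37.01 CPM in FS3A, FS3B and FS5A. All C234W values lay below the closely spaced wild-type values, with a log2 fold change of -0.35 (adjusted p = 0.1997, SE 0.155). Npc1 had 132, 69.3 and 65.8 CPM in the wild-type libraries and 97.2, 113 and 117 CPM in the C234W libraries. Its highest value was in WT1A, nearly 2 times (1.899 and 1.999) those of WT2A and WT2B, which were below every C234W library. The log2 fold change was 0.29 (adjusted p = 0.509, SE 0.262) with all libraries and 0.69 (adjusted p = 0.0203) without WT1A, so the call rests on that library. With the length trend removed it was 0.12.

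Soat1, which esterifies cholesterol for storage, was also highest in WT1A, with 14.9, 7.697 and 5.15 CPM in the wild-type libraries and 13.4, 11.003 and 14.1 CPM in the C234W libraries. WT2B was the lowest of the 6. Its log2 fold change went from 0.47 (adjusted p = 0.437, SE 0.360) to 0.99 (adjusted p = 0.0389) without WT1A. The pigment epithelium markers, which summed to 1059 CPM in WT1A, and the rod markers were high with Npc1, Soat1 and Ebp in that library. In the other libraries rod markers had another order. They were lower in C234W (68330 to 90748 CPM) than in WT2A and WT2B (102253 and 108386 CPM), where Npc1, Soat1 and Ebp were higher in C234W. The part of these markers in the values was not tested. Stard4, a sterol carrier of the cytosol and an SREBP2 target, had 14.1, 20.99 and 25.7 CPM in the wild-type libraries and 17.1, 25.7 and 15.9 CPM in the C234W libraries. WT2B and FS3B were the highest, as for Hmgcs1, and the log2 fold change was -0.05, or -0.24 with the length trend removed.

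Among the LXR receptors and exporters, Abcg1 was the member with the largest gap inside C234W. Abcg1, which passes sterol to lipoprotein particles, was measured at 192, 219.7 and 208 CPM in WT1A, WT2A and WT2B and 100.2, 104 and 197 CPM in FS3A, FS3B and FS5A (chromosome 17, 31057694 to 31117981, plus strand). FS3A and FS3B were near a midpoint of 102 CPM, about 0.5 times the wild-type level, and FS5A lay within the wild-type range. The log2 fold change was -0.63 (adjusted p = 0.175, SE 0.258), and -0.84 (adjusted p = 0.156) with the length trend removed. Without FS5A the log2 fold change was -1.02 (adjusted p = 0.0901). The gliosis markers were high in the same 2 libraries, FS3A and FS3B, which share a number in their names, and their part in the Abcg1 values was not tested.

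Abca1, the exporter to apolipoprotein acceptors, showed a different order, with 51.1, 26.1 and 37.5 CPM in the wild-type libraries and 35.1, 43.3 and 54.1 CPM in the C234W libraries. WT1A and FS5A were the highest and WT2A the lowest, and the log2 fold change was 0.21 (adjusted p = 0.646, SE 0.262), turning to -0.14 with the length trend removed. The 2 LXR genes had opposite signs. Nr1h2, the widely expressed LXRβ, was measured at 62.03, 37.5 and 39.9 CPM in WT1A, WT2A and WT2B and 75.8, 63.4 and 57.4 CPM in FS3A, FS3B and FS5A. WT1A lay within the C234W range and WT2A and WT2B below it, with a log2 fold change of 0.50 (adjusted p = 0.1996, SE 0.221), and 0.76 (adjusted p = 0.0235) without WT1A. Nr1h3, LXRα, was the least abundant member, with 2.39, 3.71 and 3.68 CPM in the wild-type libraries and 2.19, 2.28 and 2.38 CPM in the C234W libraries. Its groups were separated by no more than the gap between 2.391 CPM in WT1A and 2.378 CPM in FS5A, and the log2 fold change was -0.52 (adjusted p = 0.332, SE 0.316).

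Cyp46a1 makes 24-hydroxycholesterol, the form in which neurons release cholesterol. It was measured at 13.2, 19.3 and 17.1 CPM in WT1A, WT2A and WT2B and 16.3, 16.7 and 17.2 CPM in FS3A, FS3B and FS5A. The C234W libraries were within 1 CPM of each other and inside the wild-type range, with a log2 fold change of 0.02 (adjusted p = 0.964, SE 0.2001). Over the 16 alternatives its log2 fold change lay between -0.11 and 0.19.

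Levels per kilobase of the deposited model differed widely among the 31 genes. Over the 6 libraries, Insig1 had 31.8 ± 9.17 CPM per kilobase (SD), Pmvk 31.3 ± 5.64, Scap 31.2 ± 2.202, Abcg1 29.3 ± 9.25, Nr1h2 28.1 ± 7.38, Srebf2 26.7 ± 4.89 and Hmgcs1 26.4 ± 7.29. These 7 neighbours did not differ beyond their spread and lay above 81% of all tested genes. Fdps (20.9 ± 6.67), Npc1 (19.1 ± 5.15) and Fdft1 (17.8 ± 4.07) came next. The 2 exporters were far apart, with Abca1 at 4.03 ± 1.03. At the low end were Hsd17b7 (3.23 ± 0.763), Soat1 (2.32 ± 0.819), Idi1 (1.73 ± 0.378) and Nr1h3 (1.61 ± 0.418). The median over the 31 was 10.7 CPM per kilobase, beside 7.82 over all tested genes. Within the synthesis pathway the level per kilobase spanned from 1.73 for Idi1 to 31.3 for Pmvk. LXRβ exceeded LXRα by a ratio of 17.5 on this scale.

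**Figure D4:**
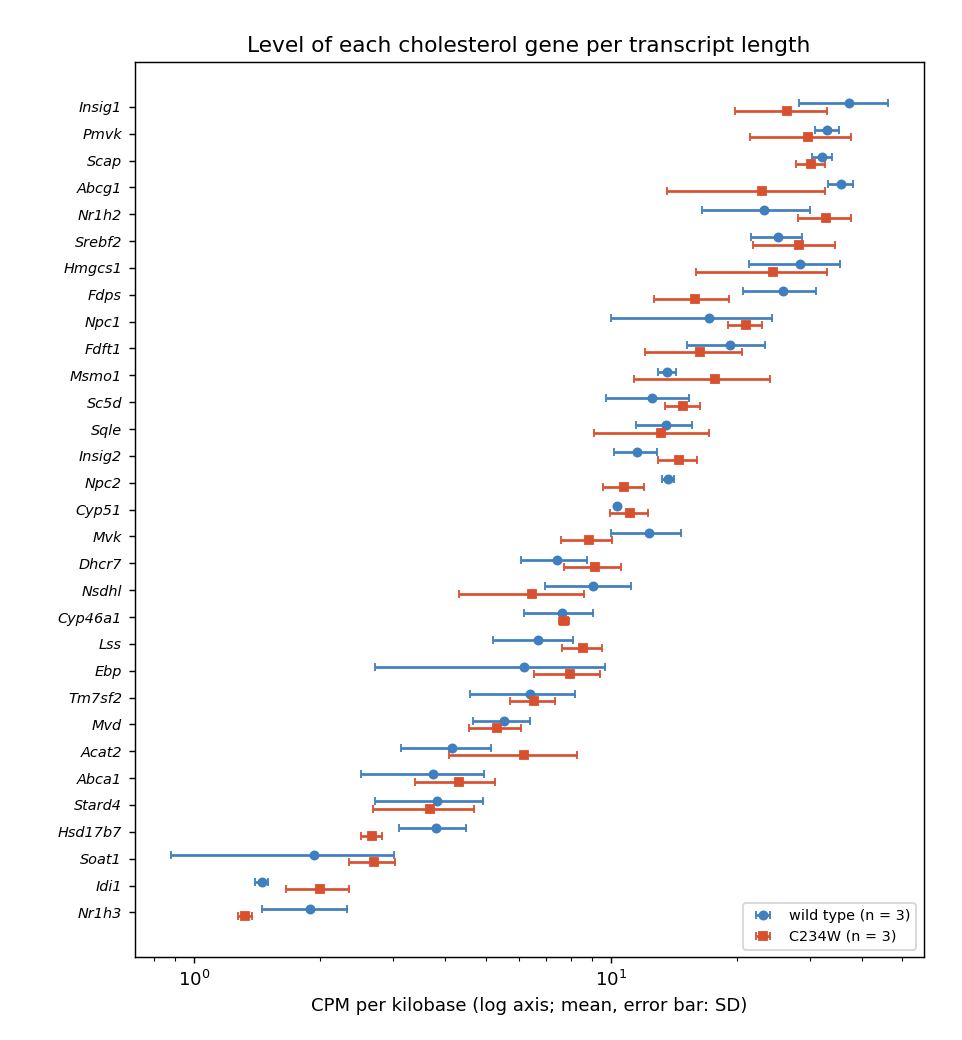
Level of each gene in CPM per kilobase of its deposited model on a log axis, as mean and SD of 3 libraries of each genotype. Insig1, Pmvk, Scap and Abcg1 are at the top and Nr1h3 is lowest, and the wild-type and C234W error bars overlap for most genes.

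None of the other pathway genes passed in edgeR either. A list of 71 further genes of synthesis, SREBP processing, uptake, transport and LXR function had 65 tested, of which 0 passed in edgeR, 15 were at an unadjusted p under 0.05 (8 positive, 7 negative) and DESeq2 called 7. That is 23.1% at an unadjusted p, against 25.4% of all genes, and 10.8% by DESeq2, against 11.9%. In uptake, Lrp8, a lipoprotein receptor known for reelin signalling, had 98.8, 83.6 and 68.05 CPM in the wild-type libraries and 142, 132 and 129 CPM in the C234W libraries. All C234W values were above all wild-type values, with a log2 fold change of 0.68 (adjusted p = 0.0640, SE 0.168), or 0.41 (adjusted p = 0.205) with the length trend removed. In transport, Osbpl8, an oxysterol-binding protein homologue at membrane contacts, had 62.2, 63.1 and 44.7 CPM in the wild-type libraries and 115, 81.5 and 98.5 CPM in the C234W libraries. Its groups did not overlap either, with a log2 fold change of 0.79 (adjusted p = 0.0637, SE 0.194).

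Abca2, a transporter of the late endosome, had the smallest p of the LXR, export and oxysterol genes, with 108, 96.99 and 73.1 CPM in the wild-type libraries and 143, 141 and 159.9 CPM in the C234W libraries. Its groups did not overlap, and the log2 fold change was 0.67 (adjusted p = 0.0703, SE 0.175), or 0.39 with the length trend removed. In synthesis the smallest p was that of Pdss1, which makes the side chain of coenzyme Q from the same isoprenoids (log2 fold change 0.88, adjusted p = 0.1001, SE 0.271). Its deposited model, like that of Mvd, is a non-coding RefSeq transcript.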

How the data were processed

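Polyadenylated retinal RNA from 6 libraries was counted per gene. Libraries were strand-specific (TruSeq), per the labels' protocols. STAR (2.7.8a) aligned the reads to mm10 and HOMER counted unique tags on the minus strand of exons in a single isoform of each locus, per the series' design text and the submitters' processing notes. The authors deposited estimated counts without normalization, as the file header states, with non-integer values that were rounded here. The authors' table also gives each model's length. No sample column was set aside (0 columns).

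Low counts were removed with filterByExpr of edgeR (4.0.16, in R 4.3.3), TMM set the scale, and the robust quasi-likelihood test compared genotypes without covariates. Benjamini-Hochberg adjustment covered 14685 genes, at a threshold of 0.05. CPM are counts scaled by TMM to the library total. The SE is the size of the log2 fold change divided by the square root of F. Alternatives tried were total-count, RLE and upper-quartile scaling, the filter dropped or set to 1 CPM in 3 libraries, DESeq2 (1.42.0), limma-voom (3.58.1), unrounded counts, removal of a loess length trend (span 0.3), summing libraries of the same number and leaving out each library. The letter of the library name was tried after seeing the data. No 2 libraries were duplicates (smallest chi-square per degree of freedom 9.97, WT2A and WT2B). That pair was the most alike by far, since the other pairs ran from 30.6 (FS3A and FS5A) to 112 (WT1A and FS3B). The scripts were tested on simulated data.

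The 31 members and all lists were chosen with earlier results of these data known. Full values are given for members with an unadjusted p under 0.05 or groups that did not overlap, and for the member with the highest level per kilobase in each role group. Others whose library pattern is described were chosen after their values were seen. Of the further genes, the one with the smallest p in each list is named, apart from 1 list whose gene is not reported here.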

Additional observations from a re-analysis of the deposited data

How the results depend on the processing

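No paired analysis was possible because the columns carry no replicate number of the labels. The count of the 31 genes passing was 0 in every alternative except 1 by DESeq2 and 0 to 5 with 1 library left out, where 5 was without WT1A. Genes whose groups did not overlap numbered 6 with all libraries and from 6 to 17 with 1 library left out (17 without WT1A and 12 without FS5A), where the share of all genes ran from 32.9 to 53%, against 29.1% with all libraries. It was 5 under RLE and upper-quartile scaling, 9 under total counts and 8 with same-number libraries summed, against 29, 29.2, 33.3 and 44.5% of all genes. Of the 65 further pathway genes, DESeq2 called 7 (10.8%, against 11.9% of all genes), and 0 to 13 passed with 1 library left out (13 without WT1A, 20%, against 18.5% of all genes, and 0 without each other library). Under total-count scaling alone the all-gene median went from 0.023 to 0.20 and that of the 31 from 0.020 to 0.19 (log2 fold change), which also moved the mean enzyme deviation of WT1A from 0.022 to -0.18 and of WT2B from 0.069 to 0.009. The FS3B value stayed positive, from 0.23 to 0.36, under each scaling and with the length trend removed. Fdps had a log2 fold change of -0.69 by DESeq2 and -0.82 without WT1A, and passed under both. The other named members (Abcg1, Hsd17b7, Idi1, Mvk, Npc2 and Nr1h3) passed in none of the 16 alternatives and kept their sign in all 16. Over the 31, 21 kept their sign in all 16, and Pmvk, Mvd, Sqle, Cyp51, Tm7sf2, Scap, Srebf2, Stard4, Abca1 and Cyp46a1 turned in at least 1. Fits leaving out 1 library leave 2 against 3. Without WT1A the wild-type libraries are WT2A and WT2B, which share a number, were the most alike pair and may not be separate animals. Low counts limit Nr1h3 and Idi1, at 35.5 to 127 counts per library.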

Other observations

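Of the further pathway genes, Ch25h, which makes 25-hydroxycholesterol and is an interferon-inducible gene of macrophages, had the largest log2 fold change and was picked out after its values were seen. It had 2.32, 0.215 and 0.441 CPM in WT1A, WT2A and WT2B and 9.53, 8.58 and 1.22 CPM in FS3A, FS3B and FS5A. FS3A and FS3B were high and FS5A lay within the wild-type range, the same 2 libraries in which Abcg1 was low and gliosis markers were high. The log2 fold change was 2.71 (adjusted p = 0.126, SE 0.923) by edgeR. The 12 microglia and macrophage markers summed to 82.0, 87.8 and 122.3 CPM in wild type and 70.5, 105.7 and 82.7 CPM in C234W, and their part in the Ch25h values was not tested.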
